A study of Mus musculus with 8 samples.

Results

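Keratin-associated protein genes, whose mouse symbols start with Krtap, were examined in RNA from tail epidermis. The annotation used for gene names held 58 genes with such a symbol, the count table held 57 of them among 46983 identifiers, and all 57 passed the filter on low counts, beside 15638 tested genes in all. Krtap10-10 had no row in the table and was not analysed here. The 57 genes fell into 27 subfamilies by the number before the hyphen, 16 of which had a single member, and lay on 5 chromosomes. Related genes that still carry clone names (Gm or Rik) are not taken in by the symbol.

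In the hair shaft, keratin filaments are embedded in a matrix of keratin-associated proteins, small proteins that are crosslinked to hair keratins and to each other, largely by disulphide bonds. Subfamilies are told apart by composition as high sulphur, ultra-high sulphur (the richest in cysteine) and high glycine-tyrosine proteins. Their genes are switched on late in the differentiation of the hair cortex and cuticle and sit in clusters, of which that on chromosome 11 lies within the type I keratin genes. Tail skin bears follicles and scales, and scale epidermis makes the hard keratins Krt36 and Krt84.

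The 8 libraries came from 8 mice aged 8 weeks, 1 mouse per library. The strain joins the transgene Tg(KRT14-cre)1Amc/J with the alleles Ppp1r8tm1Ave and Ppp1r8tm1.1Itl. All mice carried 1 copy of K14-Cre, a Cre recombinase driven by the keratin 14 promoter, which is active in basal keratinocytes and the outer root sheath. The 4 CTR mice had the genotype K14-Cre/+ Ppp1r8 fl/+, and so carried Cre and a floxed allele too. The 4 SKO mice had K14-Cre/+ Ppp1r8 fl/-. Ppp1r8 encodes NIPP1, a nuclear protein that binds the phosphatase PP1, and the comparison asks what its loss from keratinocytes does to epidermal RNA. By these genotypes the - allele of SKO mice is not confined to keratinocytes, and Cre can act on a floxed allele in both groups. The epidermis was peeled from the dermis after 5 h in dispase, with no cell sorting given in the labels.

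Promoters of 3 members are shown because they stand for different sizes of response: of the members outside the Krtap5 and Krtap31 subfamilies Krtap28-13 fell most, Krtap8-1 is an abundant member that fell 9.96-fold, and Krtap3-1 is an abundant member that fell 2.26-fold. The sequences are from RefSeq (GRCm38.p6), 250 bases before and 50 after the annotated start, written 5′ to 3′ on the strand of the gene, with TATAAA in capitals. They lie at chr1:83060680-83060979 (plus strand), chr16:89487903-89488202 (minus strand) and chr11:99566581-99566880 (minus strand).
Krtap28-13: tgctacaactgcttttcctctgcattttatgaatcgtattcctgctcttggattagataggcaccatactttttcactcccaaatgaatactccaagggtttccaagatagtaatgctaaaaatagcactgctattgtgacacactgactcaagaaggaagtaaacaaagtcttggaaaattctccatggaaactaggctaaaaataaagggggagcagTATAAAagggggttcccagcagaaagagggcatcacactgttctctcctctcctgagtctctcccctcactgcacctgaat
Krtap8-1: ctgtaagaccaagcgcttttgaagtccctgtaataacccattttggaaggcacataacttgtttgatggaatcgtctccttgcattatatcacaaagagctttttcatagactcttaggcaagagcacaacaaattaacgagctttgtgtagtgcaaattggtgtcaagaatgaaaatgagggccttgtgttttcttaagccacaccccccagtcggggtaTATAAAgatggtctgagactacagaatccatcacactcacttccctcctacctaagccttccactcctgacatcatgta
Krtap3-1: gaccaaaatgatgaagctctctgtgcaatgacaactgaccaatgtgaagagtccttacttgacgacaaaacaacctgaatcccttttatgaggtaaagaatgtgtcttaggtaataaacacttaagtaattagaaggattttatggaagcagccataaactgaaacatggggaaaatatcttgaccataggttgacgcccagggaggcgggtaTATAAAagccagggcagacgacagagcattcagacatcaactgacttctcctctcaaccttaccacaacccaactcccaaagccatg
In these 3 promoters the first T of TATAAA lay 31, 29 and 37 bases before the start. Of the 57 members, 51 had a promoter in the RefSeq table, and 42 of these (82.4%) held TATAAA on either strand, against 4473 of all 32851 promoters of the same length (13.6%). Within 45 to 16 bases before the start and on the strand of the gene, TATAAA was present in 32 of the 51 (62.7%) and in 702 of all promoters (2.14%). These are matches of letters, not measured binding sites, and the difference in share was not tested.

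The smallest library held 16696212 counts and the largest 21571935, and 3 counts corresponded to between 0.139 and 0.180 CPM (counts per 1000000). Levels below are CPM on library sizes normalised by trimmed mean of M values. Ppp1r8 gene-level counts overlapped between groups (34.7 to 41.6 CPM in CTR, 28.4 to 47.4 in SKO) and do not check the genotype, since the sources used here do not give the deleted part. Krt5, Krt14 and 8 further keratinocyte markers summed to 33904 to 38902 CPM in CTR and 57854 to 74861 CPM in SKO, as the labelled tissue would have it. Of these markers 3 rose and 3 fell (11.5% and 12.2% of all tested genes). The larger sum in SKO held mean levels of 18366 CPM for Krt1 and 31131 CPM for Krt10, against 2488 and 15650 CPM in CTR. Sums for 4 endothelial markers were 1.08 to 2.94 and 0.952 to 2.01 CPM. Markers of other tissue were not absent: 7 dermal fibroblast genes summed to 246 to 365 CPM in CTR and 346 to 491 in SKO. The sums for 5 muscle genes were 3.59 to 21.7 and 2.60 to 48.3 CPM. Counts on 4 Y-linked genes were 0 in all 8 libraries. Mitochondrially encoded genes took 1.15% to 1.26% of counts in CTR and 0.781% to 0.984% in SKO; their part in the results was not tested.

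Nearly all Krtap genes fell in SKO epidermis. By edgeR's quasi-likelihood test, adjusted over all tested genes by the Benjamini-Hochberg method, 56 of 57 fell and 0 rose, where 12.2% of all tested genes fell. For the single exception, Krtap13, the level was 1.997-fold lower and missed the threshold (log2 fold change -0.998, SE 0.41, adjusted p = 0.102). It passed only with a replicate block by couples of neighbouring animal numbers (adjusted p = 0.0367), with which 57 fell (14.7% of all tested genes). This block was added after seeing the data. Under every other setting tried, by edgeR, DESeq2 or limma-voom, Krtap13 missed the threshold (adjusted p = 0.0554 to 0.213). The median fold change of the 57 was 7.79-fold lower (log2 -2.96), while the median over all tested genes was -0.0026 on the log2 scale. A fall of at least 4-fold was called for 49 members (1.39% of all tested genes), 28 fell at least 8-fold (0.441%) and 5 at least 16-fold (0.128%). All SKO libraries lay below all CTR libraries for each of the 57, as for 13.3% of all tested genes. No member rose at an unadjusted p under 0.05, and none was called higher by DESeq2, where 55 members and 14.3% of all tested genes fell. In bulk RNA, fewer cells of a type and less RNA per cell cannot be told apart.

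Summed over the family, Krtap counts took 1.37%, 1.93%, 1.94% and 1.38% of all counts in CTR 1 to 4, and 0.114%, 0.362%, 0.566% and 0.460% in SKO 1 to 4. The groups did not overlap. SKO 1 held the smallest share and SKO 3 the largest of its group.

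**Figure D1:**
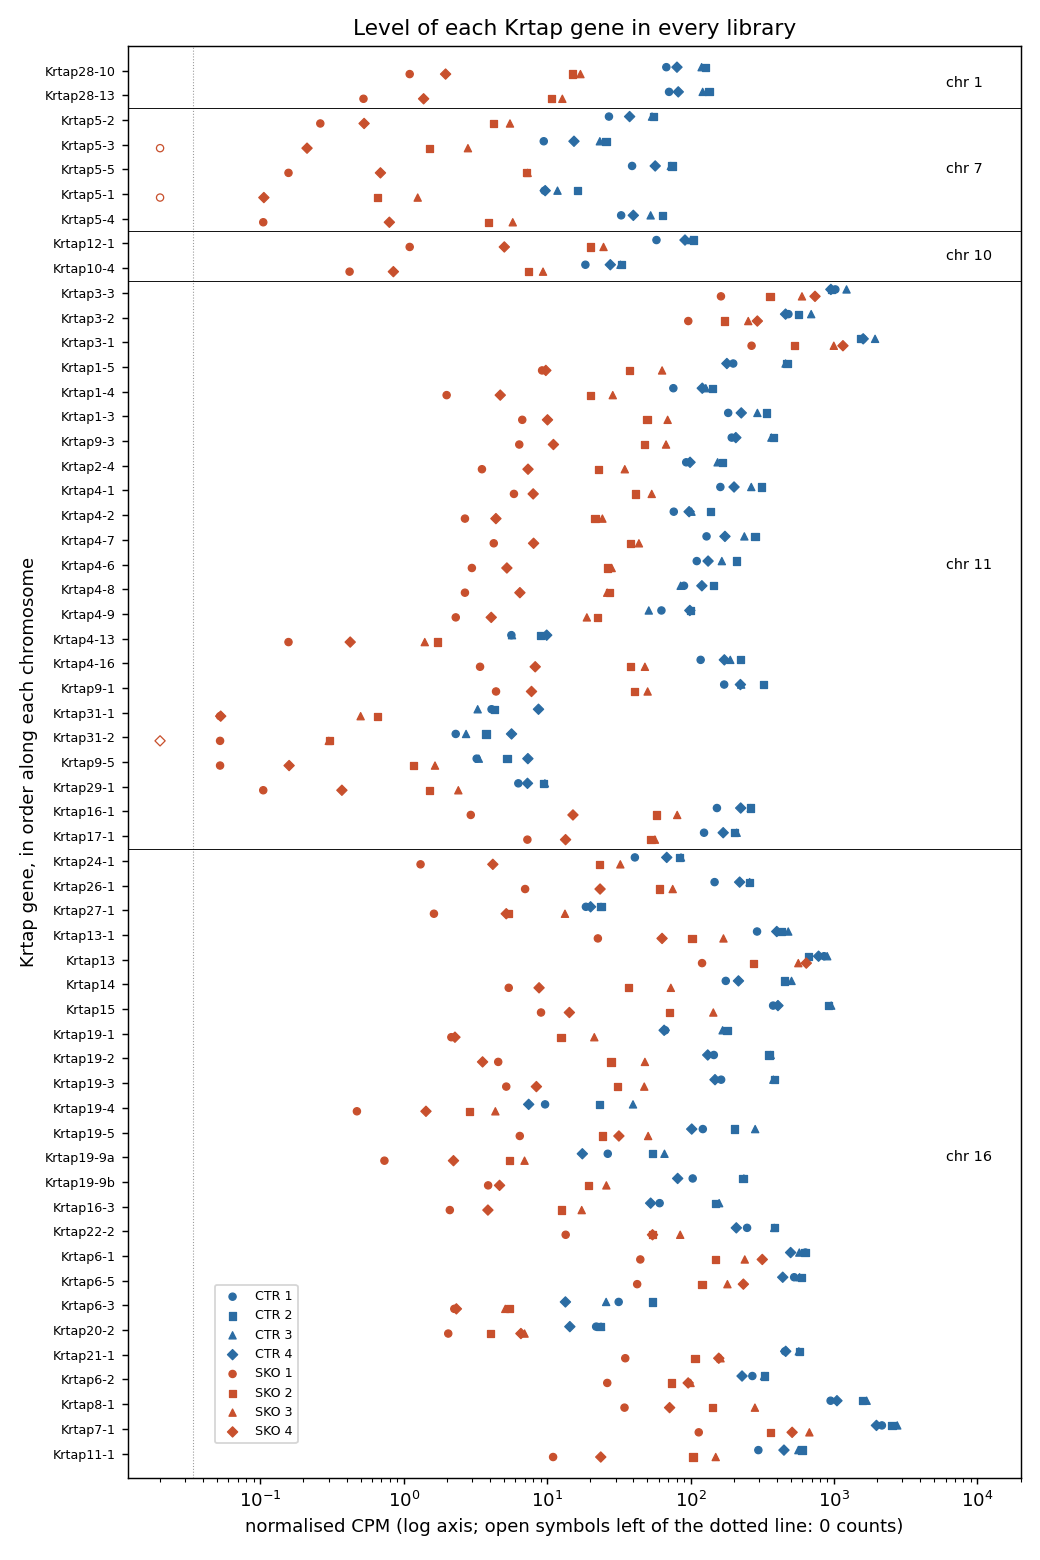
Normalised CPM (log axis) of the 57 Krtap genes in each library, in order along each chromosome; blue symbols are the 4 CTR and orange symbols the 4 SKO libraries, and open symbols mark 0 counts. In every row the 4 CTR symbols lie to the right of the 4 SKO symbols, and SKO 1 is the lowest symbol for 55 of 57 genes.

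High sulphur subfamilies included the smallest falls. All 15 members were lower in SKO, 14 of them past the threshold (12.2% of all tested genes), by 1.997- to 11.1-fold (median log2 fold change -2.41). The 3 genes of Krtap3, at the edge of the chromosome 11 cluster next to Krtap1-5, encode small matrix proteins of the hair cortex and were among the most abundant members. Krtap3-1 (ENSMUSG00000047564.4, chromosome 11, 99566027 to 99566630, GRCm38) had 1591, 1539, 1936 and 1599 CPM in CTR 1 to 4 and 267, 530, 998 and 1156 CPM in SKO 1 to 4. It was thus 2.26-fold lower (log2 fold change -1.18, SE 0.36, adjusted p = 0.0403), with SKO 3 and SKO 4 nearest to the CTR range. Krtap3-3 fell 2.24-fold (adjusted p = 0.0410) and Krtap3-2 fell 2.70-fold (adjusted p = 0.00731).

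Krtap13 on chromosome 16 had the same shape: 854, 665, 898 and 781 CPM in CTR 1 to 4, and 120, 275, 565 and 642 CPM in SKO 1 to 4. Its SKO 4 value lay just below the lowest CTR value. Its neighbour Krtap13-1, on the other strand, fell 4.46-fold. Next along the chromosome, Krtap14 and Krtap15 fell 10.9- and 11.1-fold (adjusted p = 0.00936 and 0.0121). These 2 genes overlap on opposite strands, and both overlap 4930553J12Rik, which lies on the strand of Krtap15. Although the library kit marks strand, the setting used in counting is not known here, so their counts cannot be fully told apart.

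Among the other high sulphur genes, the 3 members of Krtap1 fell 7.66- to 10.9-fold and Krtap2-4 fell 7.46-fold (adjusted p = 0.00609). Krtap11-1 went from 297, 599, 565 and 448 CPM in CTR 1 to 4 to 11.01, 104, 150 and 23.7 CPM in SKO 1 to 4 (6.61-fold lower, adjusted p = 0.0170). SKO 1 and SKO 4 were therefore far below SKO 2 and SKO 3 for this gene. Krtap24-1, Krtap26-1 and Krtap27-1 fell 4.54-, 5.30- and 3.36-fold (adjusted p = 0.0460, 0.0130 and 0.0173).

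Ultra-high sulphur genes as classed here, whose proteins carry the most cysteine, all fell: 19 of 19 (12.2% of all tested genes), by 5.40- to 22.9-fold (median log2 fold change -3.10). The 5 Krtap5 genes on chromosome 7, a subfamily known from the hair cuticle, fell furthest within this class, by 15.7- to 22.9-fold (log2 fold changes -4.52 to -3.97). Limma-voom gave -5.61 to -4.87 for them, a fall up to 2.58 times larger (Krtap5-3, -5.37). Krtap5-5 (ENSMUSG00000073785.2, chromosome 7, 142228795 to 142229971, GRCm38), the most abundant of them, had 39.1, 74.4, 72.9 and 56.7 CPM in CTR 1 to 4 and 0.157, 7.18, 7.31 and 0.688 CPM in SKO 1 to 4 (log2 fold change -3.97, SE 0.68, adjusted p = 0.00348). SKO 1 corresponded to 3 counts and SKO 4 to 13. Krtap5-1 had 9.58, 16.3, 11.8 and 9.70 CPM in CTR 1 to 4, and 0, 0.657, 1.25 and 0.106 CPM in SKO 1 to 4, where SKO 1 had 0 counts and SKO 4 had 2 counts.

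Krtap12-1 and Krtap10-4, cuticle genes of chromosome 10, were placed among the ultra-high sulphur genes without a reading of protein sequence. They fell less than the Krtap5 genes, by 6.95-fold (adjusted p = 0.0126) and 6.14-fold (adjusted p = 0.0175). On chromosome 11, the 8 Krtap4 genes fell 6.53- to 9.83-fold and the 3 Krtap9 genes 6.24- to 9.12-fold. The leading member of the former, Krtap4-1, had 161, 314, 265 and 201 CPM in CTR 1 to 4 and 5.87, 41.3, 53.6 and 7.99 CPM in SKO 1 to 4 (adjusted p = 0.00694). Krtap9-3 fell 8.60-fold (adjusted p = 0.00802). Krtap17-1, at the far edge of the chromosome 11 cluster, fell 5.40-fold (adjusted p = 0.0115), the smallest fall of the ultra-high sulphur class.

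High glycine-tyrosine genes lay on chromosome 16 and held the most abundant member per length. All 16 fell (12.2% of all tested genes), by 3.11- to 12.45-fold (median log2 fold change -2.84). Krtap7-1 (ENSMUSG00000056706.2, chromosome 16, 89507703 to 89508323, GRCm38) had the highest CTR level of all members, 3803 CPM per kb of exon, against 3.86 for the lowest, Krtap31-2. It had 2161, 2542, 2764 and 1979 CPM in CTR 1 to 4 and 114, 363, 674 and 511 CPM in SKO 1 to 4 (5.68-fold lower, adjusted p = 0.00333). Its neighbour Krtap8-1 had 948, 1592, 1691 and 1050 CPM in CTR 1 to 4 and 34.6, 143, 281 and 71.5 CPM in SKO 1 to 4 (9.96-fold lower, adjusted p = 0.00315). The gap between SKO 4 and SKO 3 was therefore wider for Krtap8-1 than for Krtap7-1.

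The 7 Krtap19 genes, 1 of them annotated as a processed pseudogene (Krtap19-9a), fell 6.26- to 12.45-fold. Their leading member Krtap19-3 had 163, 387, 378 and 148 CPM in CTR 1 to 4 and 5.19, 30.9, 47.6 and 8.42 CPM in SKO 1 to 4 (adjusted p = 0.00476). CTR 2 and CTR 3 were well above CTR 1 and CTR 4. The 4 Krtap6 genes spread from 3.11-fold (Krtap6-1, adjusted p = 0.0242) to 8.20-fold lower (Krtap6-3). Krtap20-2, Krtap21-1 and Krtap22-2 fell 4.24-, 4.46- and 5.92-fold (adjusted p = 0.00211, 0.00388 and 0.00379).

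A further 7 members were not assigned to a class here, and all fell (12.2% of all tested genes). The 2 Krtap28 genes on chromosome 1 fell 11.2- and 16.02-fold. Krtap28-13 had 70.8, 134, 122 and 82.1 CPM in CTR 1 to 4 and 0.524, 10.7, 12.8 and 1.38 CPM in SKO 1 to 4 (adjusted p = 0.00353). Both Krtap31 genes were scarce: Krtap31-2 had 2.305, 3.75, 2.72 and 5.65 CPM in CTR 1 to 4, and 1, 6, 6 and 0 counts in SKO 1 to 4 (20.96-fold lower, adjusted p = 0.000985). Krtap31-1 fell 15.7-fold and Krtap29-1 fell 7.33-fold. The number 16 joins genes at 2 loci: Krtap16-1 on chromosome 11 fell 5.75-fold (adjusted p = 0.0286), and Krtap16-3, within the chromosome 16 cluster, fell 11.6-fold.

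**Figure D2:**
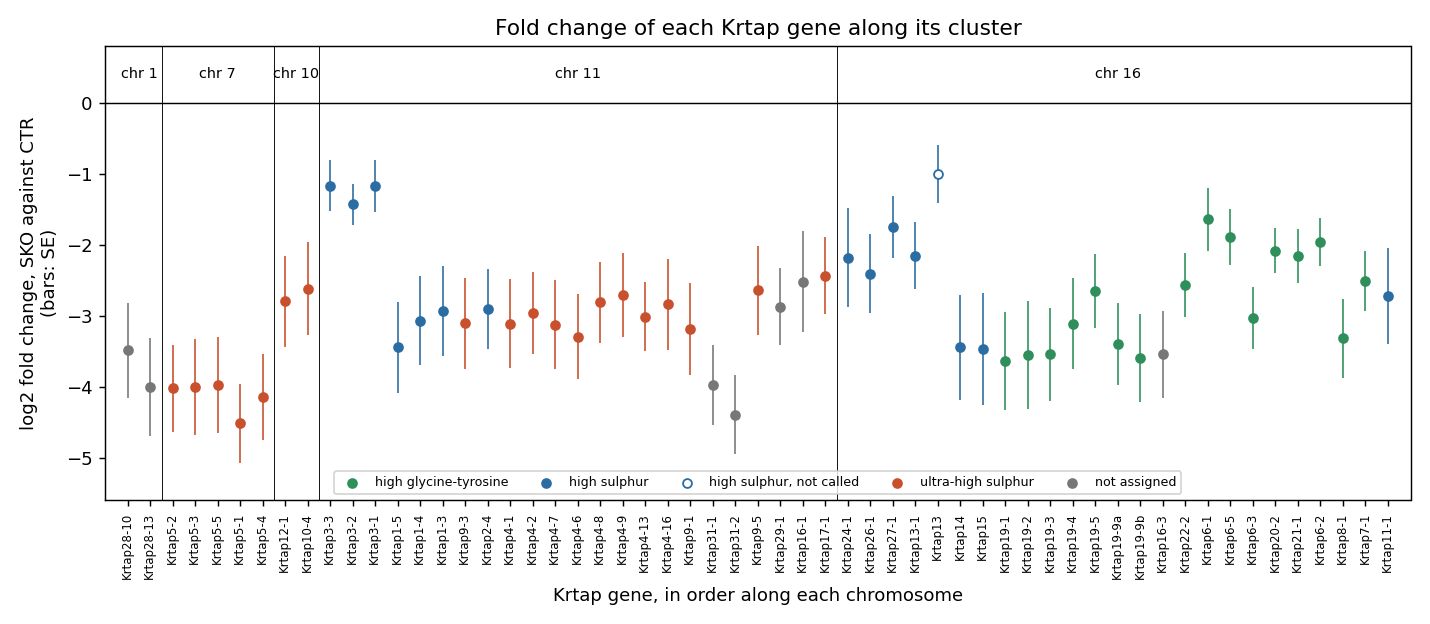
Log2 fold change of SKO against CTR (points, with SE as bars) for the 57 genes in order along each chromosome, coloured by protein class; the open point, Krtap13, was not called. Krtap3 genes and Krtap13 lie nearest to 0 (-1.43 to -0.998), and the Krtap5 genes of chromosome 7 lie between -4.52 and -3.97.

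Calls near the threshold ended when libraries were left out singly, in Krtap3-1, Krtap3-3, Krtap6-1, Krtap16-1 and Krtap24-1, while their fold changes moved little. For Krtap3-1 and Krtap3-3 this was so without any single CTR library or without SKO 2 (adjusted p up to 0.0995 and 0.101), at log2 fold changes of -1.21 to -1.04 and -1.21 to -1.05. For Krtap6-1 it was so without CTR 1, CTR 2 or SKO 2 (adjusted p up to 0.0633, log2 fold changes -1.60 to -1.54). The call of Krtap16-1 ended without CTR 2, CTR 3, CTR 4 or SKO 4 (up to 0.0675, -2.53 to -2.25), and that of Krtap24-1 without any CTR library, SKO 2 or SKO 4 (up to 0.0952, -2.45 to -1.87). Without CTR 1, 2, 3 or 4, 52, 51, 52 and 52 members fell (9.45%, 8.48%, 8.66% and 10.7% of all tested genes), and without SKO 1, 2, 3 or 4, 56, 52, 56 and 54 fell (9.87%, 9.29%, 14.6% and 8.42%). Without a count filter 56 fell (7.05% of 26685 genes). With robust dispersion estimates, 44 members fell (11.9% of all tested genes), and the same 5 were among the 12 lost. The other lost calls were Krtap10-4, Krtap11-1, Krtap12-1, Krtap15, Krtap26-1, Krtap27-1 and Krtap4-16, at adjusted p = 0.0520 to 0.0660 with robust edgeR estimates. Limma-voom gave a fall over 1.5 times larger for 19 members, among them Krtap28-13 (log2 fold change -4.91), Krtap15 (-4.14), Krtap29-1 (-3.58), Krtap10-4 (-3.54), Krtap12-1 (-3.54), Krtap11-1 (-3.35), Krtap16-1 (-3.34) and Krtap24-1 (-3.02). Without SKO 3 the fall was over 1.5 times larger for 23 members, up to 1.95 times for Krtap5-1 (log2 fold change -5.48). They include Krtap28-13 (-4.59), Krtap5-2 (-4.67), Krtap5-3 (-4.96), Krtap5-4 (-4.86), Krtap8-1 (-3.99), Krtap1-5 (-4.11), Krtap19-3 (-4.17), Krtap14 (-4.30), Krtap15 (-4.39), Krtap11-1 (-3.37), Krtap10-4 (-3.25), Krtap2-4 (-3.50), Krtap9-3 (-3.71), Krtap29-1 (-3.59), Krtap16-1 (-3.15), Krtap24-1 (-2.85) and Krtap27-1 (-2.40). Without SKO 2 this held for Krtap31-1 (-4.59).

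The 4 SKO libraries differed widely, and not in the same way for all members. SKO 1 was lowest for 55 of 57 genes, at 0% to 17.6% of the CTR mean (median 2.23%). SKO 3 was highest for 45, and over all 57 its level was 8.33% to 70.6% of the CTR mean (median 23.9%). SKO 4 was the library on which members differed most: its values ran from 0% to 80.3% of the CTR mean (median 4.70%). The order from lowest to highest SKO 1, SKO 4, SKO 2, SKO 3 held for 39 members, Krtap8-1, Krtap11-1 and all Krtap1 and Krtap5 genes among them.

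In 11 members SKO 4 was above SKO 2. They were the 3 Krtap3 genes, Krtap13, Krtap6-1, Krtap6-2, Krtap6-5, Krtap7-1, Krtap19-5, Krtap20-2 and Krtap21-1. Their SKO 4 values were 1.30 to 2.33 times those of SKO 2, and 17.9% to 80.3% of the CTR mean. For the other 46 members SKO 4 was at most 24.1% of the CTR mean. The nearest genes on either side of this line were Krtap19-5 (1.30 times) and Krtap6-2 (1.31 times) within, and Krtap22-2 (1.00 times) and Krtap27-1 (0.959 times) outside. This set was drawn after the values were seen and is given as a description with no test.

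For 6 of the 11 the SKO libraries, from lowest to highest, came in the order 1, 2, 3, 4: Krtap3-1, Krtap3-2, Krtap3-3, Krtap13, Krtap6-1 and Krtap6-5. The scale keratin genes Krt36 and Krt84 had the same order. Krt84 stood at 27.1%, 51.1%, 87.8% and 113% of its CTR mean of 26447 CPM in SKO 1 to 4, and Krt36 had 5158, 10024, 17560 and 22922 CPM beside a CTR mean of 20047 CPM. Neither was called (adjusted p = 0.312 and 0.318). Of 15 hair keratin genes, 12 had the order of the 39 members above, 2 (Krt36 and Krt84) that of the 6, and Krt39 had SKO 4 (27.4 CPM) above SKO 2 (21.5 CPM) but below SKO 3. Krt33b, the hair keratin gene with the largest fall, was lowest in SKO 1 (9.38 CPM), followed by SKO 4 (13.7 CPM), SKO 2 (65.5 CPM) and SKO 3 (124 CPM). Which cells hold the RNA of either set was not measured.

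**Figure D3:**
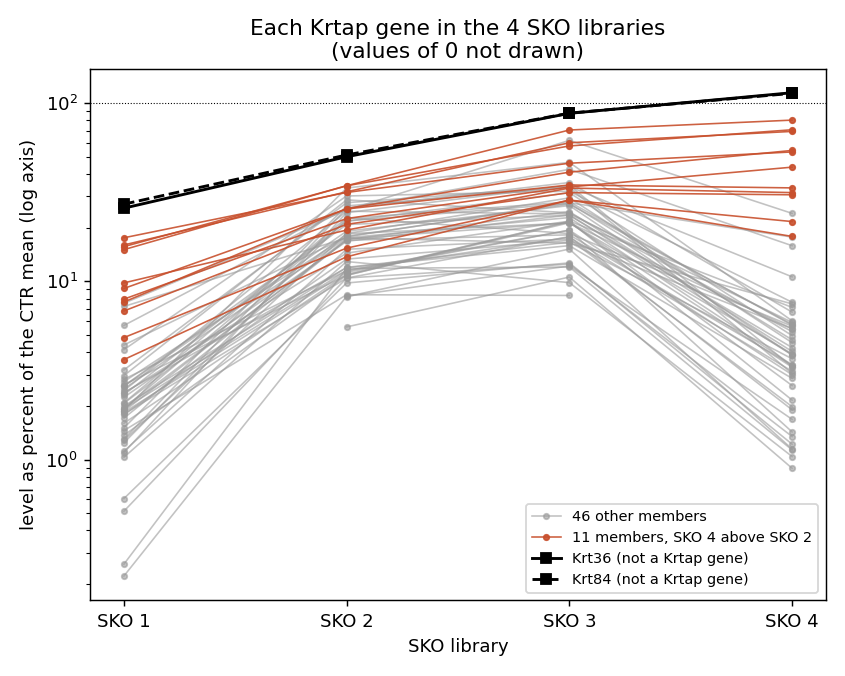
Level of each Krtap gene in SKO 1 to 4 as percent of its CTR mean (log axis); orange lines are the 11 members with SKO 4 above SKO 2, grey lines the 46 others, and black lines the scale keratin genes Krt36 and Krt84. Orange lines end at 17.9% to 80.3% in SKO 4, where all grey lines lie at or below 24.1%.

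The 2 sets made up the family's total differently in each library. The 11 members took 59.9%, 45.03%, 49.2% and 53.7% of Krtap counts in CTR 1 to 4, and 82.2%, 61.9%, 65.8% and 90.6% in SKO 1 to 4. Since SKO 4 and SKO 2 were used to choose them, these shares describe the choice and are no test of it. As a share of all counts, the other 46 members had 0.549%, 1.06%, 0.987% and 0.638% in CTR 1 to 4 and 0.0203%, 0.138%, 0.194% and 0.0433% in SKO 1 to 4. The 3 Krtap3 genes made up 16.02% to 22.8% of Krtap counts in CTR and 30.2% to 47.4% in SKO. Krtap7-1 had 13.3% to 15.9% in CTR and 10.2% to 11.6% in SKO. High glycine-tyrosine genes had 38.9% to 43.7% in CTR and 30.3% to 33.3% in SKO, and ultra-high sulphur genes 10.6% to 14.1% and 1.85% to 11.5%, the latter overlapping through SKO 2.

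**Figure D4:**
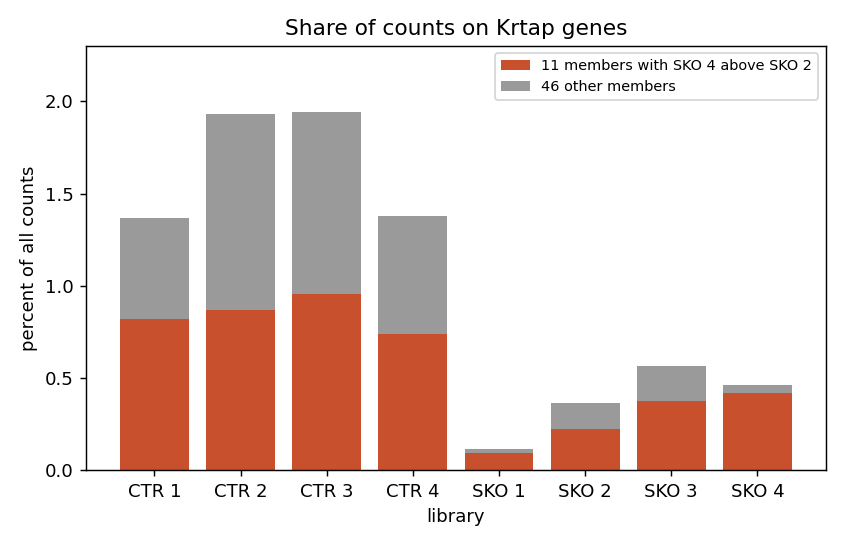
Percent of all counts in each library that fell on Krtap genes, as stacked bars starting at 0; the orange part is the 11 members with SKO 4 above SKO 2 and the grey part the other 46. The bars reach 1.37% to 1.94% in CTR and 0.114% to 0.566% in SKO, and the grey part is smallest in SKO 1 and SKO 4.

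The CTR libraries also differed among themselves. For 46 of 57 genes both CTR 2 and CTR 3 were above both CTR 1 and CTR 4. The highest CTR library was 1.26 to 5.34 times the lowest (median 1.88). In the 11 members described above this ratio had a median of 1.35 (1.26 to 2.77), and in the other 46 a median of 1.92 (1.27 to 5.34), so the ranges overlapped. CTR 2 and CTR 3 were above CTR 1 and CTR 4 for 7 of the 11 and for 39 of the 46. The median CTR level was 550 CPM in the 11 and 113 CPM in the 46. Krtap16-3 is an example of the wider spread, with 60.9, 149, 158 and 52.7 CPM in CTR 1 to 4, and Krtap21-1 of the narrower one, with 455, 573, 569 and 461 CPM. CTR and SKO libraries with the same number have neighbouring animal numbers in the labels, which give no litter, batch or day. Libraries 2 and 3 were the higher in both groups for the summed other 46 members, but SKO 2 above SKO 4 follows from their choice. Summed over all 57 members, SKO 4 (4615 CPM) was above SKO 2 (3517 CPM).

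Members of the family resemble each other, and reads of 75 bases can match several. Among all annotated transcripts, 24 members shared no window of 75 bases with another gene, and for 47 members at least 80% of windows were found in no other gene. The lowest share was 29.1%, for Krtap4-13, whose windows recur in the clone-named genes Gm11554 and Gm11569. Krtap3-3 (60.9% unique) and Krtap3-2 (72.9%) share windows with each other and with Krtap3-1 (95.5%), so that their single values are uncertain. Whether their sum is less so depends on the treatment of multiply matching reads, which is not known here. The summed Krtap3 level was 43.1% of CTR in SKO. Krtap14 and Krtap15 overlap each other and 4930553J12Rik, which lies on the strand of Krtap15 and shares 122 of its 984 windows. Krtap12-1 and Krtap10-4 lie within Tspear, Krtap10-4 also overlaps Gm2696, and Krtap24-1 overlaps Gm49688. Reads of the overlapping genes may thus enter the counts of these members. Among the 47 members, 46 fell (12.2% of all tested genes), with a median log2 fold change of -2.96, the same as over all 57. Across the 57 members, the log2 fold change had a Spearman correlation of 0.13 with the share of unique windows and of 0.42 with the log2 CTR level. The CTR level also enters the fold change, so the latter value is partly built in. The genes share libraries and sequence and are not independent.

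Other genes of the hair programme were read from fixed lists in the same edgeR fit, where 12.2% of all tested genes fell. Of 15 tested hair keratin genes, the partners of Krtap proteins in the shaft, 11 fell and 0 rose (median log2 fold change -2.69). Of 10 inner root sheath and medulla genes 9 fell, among them Tchhl1 (log2 fold change -3.01, adjusted p = 0.00404) and Krt74 (-2.68, adjusted p = 0.00459). Transcription regulators of the follicle fell less: 9 of 15 fell and 1 rose, where 11.5% of all tested genes rose, with a median log2 fold change of -0.74. Hoxc13, a homeobox factor needed for hair keratin expression, had a mean of 183 CPM in CTR and 75.3 CPM in SKO (2.42-fold lower, adjusted p = 0.00182). Lef1, which mediates Wnt signals in the hair matrix, fell 3.997-fold (adjusted p = 0.00395), and the homeobox gene Msx2 fell 3.62-fold (adjusted p = 0.00387).

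Genes for the modification of hair proteins had 6 of 10 lower and 3 higher (median log2 fold change -0.99), beside 12.2% and 11.5% of all tested genes. Those named next were chosen for the size of their change, and the genes that rose are not among them. Padi3, a peptidylarginine deiminase of the follicle, fell 5.40-fold (adjusted p = 0.0218), S100a3, a calcium-binding protein of the hair cuticle, 4.17-fold (adjusted p = 0.0194) and the receptor gene Gprc5d 7.63-fold (adjusted p = 0.00984). Of 12 signalling genes of the hair matrix, 5 fell and 1 rose (median log2 fold change -0.56). Hhip, an inhibitor of hedgehog signals, fell 22.8-fold (adjusted p = 0.000271), and Bmp4 fell 2.38-fold (adjusted p = 0.0152).

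Markers of other cells moved as well, where 11.5% of all tested genes rose and 12.2% fell. Of the 10 keratinocyte markers 3 rose and 3 fell. Krt1, a keratin of differentiating epidermis, rose from a mean of 2488 CPM in CTR to 18366 CPM in SKO (adjusted p = 9.43e-05 by edgeR). Among those that fell, Itgb4 had means of 351 CPM in CTR and 190 CPM in SKO (adjusted p = 0.00123 by edgeR). Of 9 sebaceous gland genes 5 rose and 0 fell, and their sum was 4843 to 6361 CPM in CTR and 7259 to 9856 in SKO. Of 8 melanocyte genes 4 rose and 1 fell (sum 249 to 364 CPM in CTR, 332 to 556 in SKO), and of 7 immune genes 4 rose and 0 fell (55.7 to 90.02 and 102 to 137 CPM). Of 9 dermal papilla markers only 3 could be tested, and 1, Vcan, fell (sum 15.6 to 24.4 and 12.0 to 17.4 CPM). Of 7 dermal fibroblast genes 5 could be tested and 1, Postn, rose (sum 246 to 365 and 346 to 491 CPM). Of 4 endothelial and 5 muscle genes 1 each could be tested, and neither was called (muscle sum 3.59 to 21.7 CPM in CTR and 2.60 to 48.3 in SKO). No marker of these lists was at 0 in all libraries. The part of these cells in the Krtap results was not tested.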

How the data were processed

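RNA of 4 CTR and 4 SKO mice was measured as poly-A RNA, 1 library per mouse. The deposited values are raw read counts per Ensembl gene, whole numbers that the authors did not normalize. The submitters' processing notes name STAR 2.4.1d, featureCounts 1.4.6, cutadapt 1.7.1 and edgeR 3.8.6, with build GRCm38. The annotation release, the strand setting and the treatment of multiply matching reads are not given in the sources used here, so counts of similar genes may be split or lost. Symbols and positions came from GENCODE M21 (same build), where 46488 of 46983 identifiers were found.

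All 8 libraries were fitted with edgeR 4.0.16 in R 4.3.3 (TMM, filterByExpr, glmQLFit and glmQLFTest, two-sided, group as the only term), adjusting p over 15638 genes (Benjamini-Hochberg, threshold 0.05). The script was tested on simulated data. No replicate pair agreed within sampling noise. Labels give no litter, but animal numbers run in neighbouring CTR and SKO couples, which carry the same library number here. Deviations from the group means over all tested genes correlated at 0.152 to 0.400 within the 4 couples, so a fit with the couples as a block was added after seeing the data. Over Krtap genes alone the correlations within couples ran from -0.066 to 0.505. Classes follow textbook knowledge of the subfamilies, in place of the planned reading from protein sequences. No class was checked against sequence, including that of Krtap10 and Krtap12, so class counts, medians and shares rest on this placing. Alternatives were other scalings and filters, DESeq2 1.42.0, limma-voom (limma 3.58.1), robust dispersion and leaving out each library. Named were each subfamily's most abundant member, the 8 largest and 5 smallest changes and members not called; others singled out were chosen after their values were seen. Members and lists were chosen with earlier results of these data known. Counting floors cover counting error only.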

Additional observations from a re-analysis of the deposited data

Results flagged for a closer look

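A library far from the rest of its group was looked for in 70 groups of 4 libraries, and 1 was found, while chance flags about 1 group in 20. It was Krtap3-1 in CTR 3, at 1936 CPM against 1539 to 1599 CPM in the other CTR libraries, a gap to its nearest neighbour of 0.849 of the group's range.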

How the results depend on the processing

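All 57 Krtap genes had lower fitted levels in SKO under every alternative tried, and 0 were called higher. The number called lower was 56 with size factors of the RLE kind, library totals, upper-quartile factors, no count filter, the stricter filter and limma-voom, 55 with DESeq2 (Krtap24-1 lost, adjusted p = 0.0536) and 44 with robust dispersion. Over all tested genes these settings called 11.2% to 12.6% lower, but 7.05% without a filter and 14.3% with DESeq2. The number ranged from 51 to 56 when single libraries were left out. The median log2 fold change was -2.97 to -2.95 under these settings, except -3.51 with limma-voom and -3.31 with the block, and -3.50 to -2.62 without single libraries. The Krtap share of counts was 1.56% to 1.75% in CTR and 0.312% to 0.463% in SKO without single libraries. Without mitochondrial counts it was 1.68% and 0.379%, and without Krtap7-1 it was 1.42% and 0.334%. Of the 34 named members' values under alternatives, 542 stayed on their side of the threshold, 35 calls ended, 1 was gained and 0 reversed; the cause was not tested. The restriction to 47 members with at least 80% unique windows was chosen after seeing the data. Members with under 3 counts in a library, such as Krtap5-1, Krtap5-3 and Krtap31-2 in SKO, are limited by depth. With a replicate block by neighbouring animal numbers, added after seeing the data, 57 members fell and 0 rose: Krtap13 was gained (log2 fold change -1.24, adjusted p = 0.0367 by edgeR), and no other call changed. The fall was over 1.5 times larger for 3 members (Krtap11-1 -3.31, Krtap15 -4.11 and Krtap16-1 -3.15). Over all tested genes, the 4 CTR libraries each correlated best with the SKO library of their own couple. SKO 3 correlated slightly better with CTR 2 (0.162) than with CTR 3 (0.152). Over Krtap genes alone, only CTR 3 correlated best within its couple (0.278). CTR 1 correlated best with SKO 4 (0.746, couple 0.505), CTR 2 with SKO 3 (0.497, couple 0.480) and CTR 4 with SKO 2 (0.224, couple -0.066). Whether couples are litter mates is not given in the labels.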
